A study of Homo sapiens with 8 samples.

Results

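The 7 genes that encode inhibitors of cyclin-dependent kinases were followed in maps of open chromatin: CDKN1A, CDKN1B and CDKN1C of the CIP/KIP family, and CDKN2A, CDKN2B, CDKN2C and CDKN2D of the INK4 family. Their loci were taken as the gene body in GENCODE with 50 kb on each side, and every deposited peak that overlapped a locus was kept. Merged over all lists, these loci held 100 open regions of 161291 in the genome. The windows of the neighbours CDKN2A and CDKN2B share regions, which were counted once in the 100.

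The assay was ATAC-seq, which uses a transposase to cut and tag DNA not packed into nucleosomes, and the cells were U-937, a human line of monocytic acute myeloid leukaemia. The cells received for 24 h DMSO as vehicle, ATRA (all-trans retinoic acid, which activates the nuclear receptors RARA, RARB and RARG) at 0.1 µM, Corin (an inhibitor of the CoREST co-repressor complex, which carries a histone deacetylase and a histone demethylase) at 0.1 µM, or ATRA with Corin at 0.1 µM each, here the combination. The 8 samples, 2 per group, come from a single cell line. The authors deposited 1 peak list per group with the replicates combined. Replicate error is therefore unknown for every value, and differences between groups are given without a test.

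CDK inhibitors are the brakes of the cell cycle. CIP/KIP proteins bind cyclin and kinase together and hold back the kinases of G1 and S phase, while INK4 proteins bind CDK4 and CDK6 and keep D cyclins away, so that RB1 stays active and E2F targets stay off. Leukaemic cells of the monocytic kind leave the cell cycle when they differentiate, and CDKN1A, a target of p53, and CDKN2B, a frequent target of promoter methylation in leukaemia, are among the genes followed in that setting. CDKN2A is unusual in holding separate first exons for separate proteins: INK4a, a kinase inhibitor, and ARF, which binds MDM2 and thereby stabilises p53.

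The sequences that the findings turn on are given first. The first pair are the bases before the RefSeq starts of the INK4a transcript, which had no peak in any list, and of an ARF-side transcript of the same gene, which lay in an open region in every list. They run from 250 to 11 bases before the start, 240 bases each, 5′ to 3′, with each CG dinucleotide in capitals (RefSeq, GRCh38.p14).
CDKN2A, before the INK4a start (chr9:21974868-21975107, minus strand): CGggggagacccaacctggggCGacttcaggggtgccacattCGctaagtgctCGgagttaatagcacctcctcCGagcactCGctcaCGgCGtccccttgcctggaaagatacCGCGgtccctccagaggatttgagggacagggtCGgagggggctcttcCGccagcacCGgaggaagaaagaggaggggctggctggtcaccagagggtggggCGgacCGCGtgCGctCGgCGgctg
CDKN2A, before the ARF-side start (chr9:21995335-21995574, minus strand): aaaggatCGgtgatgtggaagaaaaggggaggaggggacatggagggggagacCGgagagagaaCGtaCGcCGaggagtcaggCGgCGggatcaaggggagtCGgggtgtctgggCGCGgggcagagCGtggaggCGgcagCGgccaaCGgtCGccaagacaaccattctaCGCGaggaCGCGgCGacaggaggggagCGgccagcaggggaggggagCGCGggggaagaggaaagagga
The INK4a stretch has 66.2% GC and 19 CG dinucleotides, and the ARF-side stretch 67.1% and 23. Of 35116 RefSeq promoters cut in the same way, 67.4% and 76.4% have fewer CG dinucleotides, so both are CG-rich and close to each other in base composition. The table held promoters for 6 of the 7 genes, and CDKN1C was the one without an entry.

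The next 6 sequences are windows of 200 bases on hg38 centred on the strongest summit of the distal regions to which the results return. Capitals mark a match, on either strand, to AP-1 (TGANTCA), a single retinoid hexamer (AGGTCA), the GC box (GGGCGG), the E-box (CACGTG), PU.1 (GAGGAAGT), the CCAAT box (CCAAT) or the p53 consensus decamer, and a window with no capitals has no match.
Intron of CDKN2A between the ARF and INK4a first exons (chr9:21983593-21983792, plus strand): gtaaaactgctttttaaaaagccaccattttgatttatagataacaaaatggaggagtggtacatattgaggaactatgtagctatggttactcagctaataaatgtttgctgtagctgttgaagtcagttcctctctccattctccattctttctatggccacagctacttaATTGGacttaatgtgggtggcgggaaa
CDKN1B, 16.6 kb before the start (chr12:12700372-12700571, plus strand): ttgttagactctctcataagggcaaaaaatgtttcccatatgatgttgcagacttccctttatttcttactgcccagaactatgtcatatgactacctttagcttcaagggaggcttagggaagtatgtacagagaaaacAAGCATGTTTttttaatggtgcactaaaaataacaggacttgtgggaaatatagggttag
CDKN1A, 34.4 kb before the start (chr6:36644119-36644318, plus strand): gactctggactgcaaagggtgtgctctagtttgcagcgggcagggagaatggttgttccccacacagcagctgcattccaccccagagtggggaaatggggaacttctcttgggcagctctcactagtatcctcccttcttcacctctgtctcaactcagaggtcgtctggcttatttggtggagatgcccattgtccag
CDKN1A, 48.6 kb after the start, intron of RAB44 (chr6:36727786-36727985, plus strand): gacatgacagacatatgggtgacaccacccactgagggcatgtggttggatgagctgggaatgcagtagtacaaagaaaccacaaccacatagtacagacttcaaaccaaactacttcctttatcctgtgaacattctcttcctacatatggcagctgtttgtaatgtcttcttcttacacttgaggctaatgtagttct
CDKN2B, 26.3 kb before the start (chr9:22035664-22035863, plus strand): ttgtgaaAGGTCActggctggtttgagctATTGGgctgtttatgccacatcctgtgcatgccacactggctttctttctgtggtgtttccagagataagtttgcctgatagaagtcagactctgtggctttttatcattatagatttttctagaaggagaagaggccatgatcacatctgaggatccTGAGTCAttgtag
CDKN2B, 40.1 kb before the start (chr9:22049469-22049668, plus strand): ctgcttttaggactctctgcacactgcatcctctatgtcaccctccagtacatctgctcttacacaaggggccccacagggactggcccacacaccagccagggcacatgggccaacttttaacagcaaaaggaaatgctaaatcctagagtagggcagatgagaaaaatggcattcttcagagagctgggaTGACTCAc
Such matches are common: of the windows of all 161291 regions, 12.2% hold AP-1, 13.0% the retinoid hexamer, 11.4% the GC box, 3.67% the E-box, 6.73% PU.1, 22.8% CCAAT and 5.99% the p53 decamer. The CDKN2A intronic window held 1 CCAAT match only, and neither of the 2 CDKN1A windows held any match. Both CDKN2B windows held AP-1, and the one at 26.3 kb also held a retinoid hexamer and CCAAT. The CDKN1B window held a p53 decamer. Retinoid direct repeats with spacers of 1, 2 or 5 bases, a search added after the data were seen, had no match in any of these windows and match 0.0719%, 0.170% and 0.0905% of all windows. A match is a description of letters and does not show that a factor bound there.

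The peak lists differ in ways that touch every value. The number of reads behind them is not known. The background most often found under a peak, recovered from the deposited scores, was 12.8, 9.12, 13.1 and 13.9 reads for DMSO, ATRA, Corin and the combination, and the median peak rose above it by a fold of 3.47, 4.80, 3.32 and 3.68. Fold ratios between lists were therefore divided by their median over all regions called in both lists (1.26 for ATRA against DMSO, 0.943 for Corin, 1.02 for the combination), and a scaled ratio of at least 1.5, or at most its inverse, is called higher or lower. Of the starts of 10 monocytic and myeloid marker genes, 8 to 9 were open per list, MPO having none in any list. Of 4 T cell marker starts CD8A had a region in every list and CD3D, CD3E and CD3G had none, while 3 of 4 B cell marker starts had one. Of 4 erythroid and megakaryocytic starts, and of 4 epithelial starts, 2 to 3 were open per list. Over the main starts of 19061 coding genes, 62.6% to 65.1% had a region within 1 kb per list. These counts alone therefore do not set the cell type apart.

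No CDK inhibitor locus was without peaks. CDKN1A had 26 regions, CDKN1B 12, CDKN1C 18, CDKN2A 18, CDKN2B 18, CDKN2C 5 and CDKN2D 17, against a median of 14 over the 20033 coding genes with windows drawn in the same way. CDKN1A was the densest, with 23.4 regions per 100 kb, and 98.5% of coding genes had fewer per kb. CDKN2C was the sparsest, with 4.39 per 100 kb, where the median was 9.86. The last region of CDKN2C is followed by 123 kb with no peak in any list, longer than 98.1% of all 161079 stretches between regions.

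**Figure D1:**
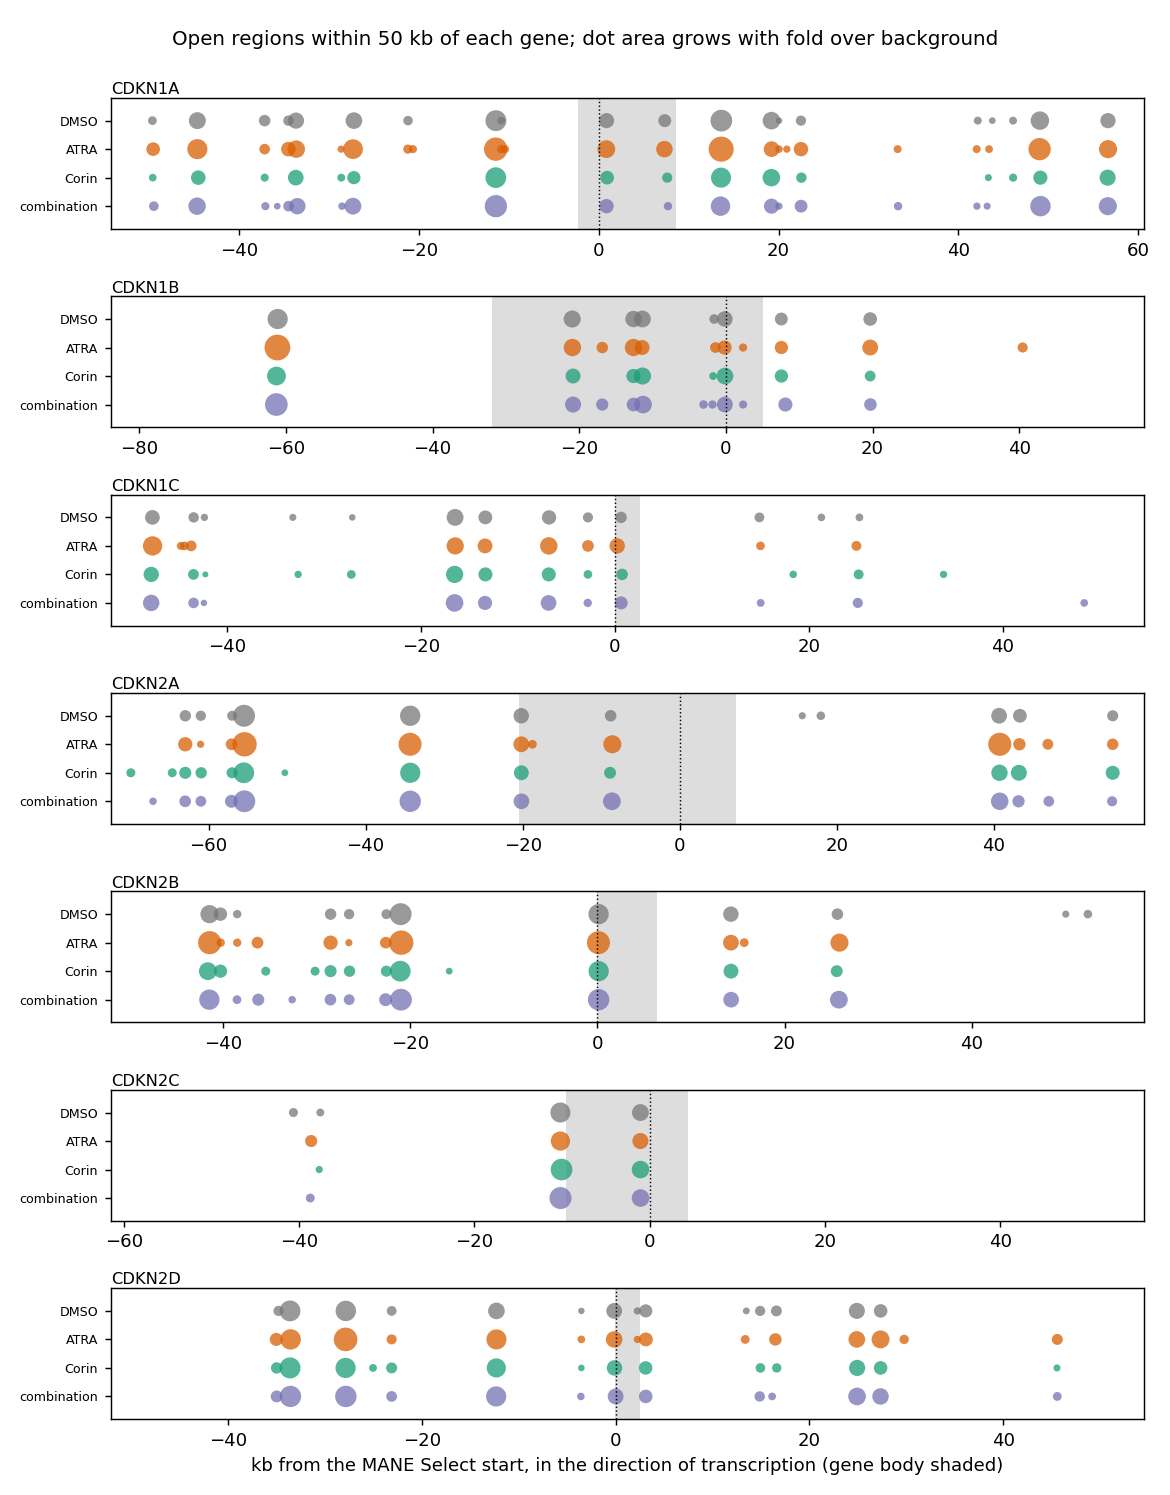
Open regions within 50 kb of the 7 genes, by list, placed by distance in kb from the MANE Select start in the direction of transcription. Dot area grows with fold over local background and grey marks the gene body. CDKN1A has the most regions (26) and CDKN2C the fewest (5), and at CDKN2A the start at 0 (INK4a) has no dot in any list.

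Presence was shared more often than not. Of the 100 regions, 54 (54.0%) were called in all 4 lists, against 41.1% of all regions in the genome. The 12 regions within 1 kb of an annotated CDK inhibitor start were in all 4 lists in 10 cases, and the 14 at starts of other coding genes in 11. Away from starts the share was smaller, with 11 of the 28 regions inside genes and 19 of the 39 between genes. Genome shares for such classes were not computed. Whether this order is particular to these loci is therefore not known, and the 54.0% against 41.1% is not matched for class. The list with the most regions was ATRA (85), followed by DMSO (80), the combination (76) and Corin (75). Over the genome the order was DMSO (116563), ATRA (113914), Corin (101851) and the combination (94917). ATRA and the combination shared 6 regions that DMSO and Corin lacked (6.0%, against 3.20% of all regions), and 0 were found in Corin and the combination alone (against 1.51%).

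The start of a gene is where the polymerase is loaded, and for 6 of the 7 genes the MANE Select start, the main transcript chosen by the annotation, had a region within 1 kb in each of the 4 lists. Over all 19061 such starts, 60.1% had one in all 4 lists. CDKN2A was the exception, through INK4a. At its start (hg38 chromosome 9, position 21974857) the nearest region lay 8486 bp away in DMSO, 7961 bp in ATRA, 8655 bp in Corin and 8030 bp in the combination. The ARF start lies 19.5 kb away in the same gene, at position 21994392, inside an open region in every list (21993871 to 21996193). That region had a fold of 9.14 in DMSO, 9.54 in ATRA, 8.48 in Corin and 9.45 in the combination, and its summit moved by only 4 bp between lists. A start of the non-coding gene CDKN2B-AS1 also lies in this region or within 1 kb of it, so the promoters cannot be told apart here. Thus the ARF side of CDKN2A was open and the INK4a side had no peak with any of the treatments. The peak-free stretch around the INK4a start runs for 23.2 kb (21959570 to 21982817), and 85.6% of all stretches between regions are shorter. A peak list holds no value where no peak was accepted, so a lower signal and a lack of reads there cannot be told apart.

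Among the CIP/KIP starts, CDKN1A, which arrests cells downstream of p53, had a region at chromosome 6, 36678317 to 36680889, with a fold of 8.80 in DMSO, 12.2 in ATRA, 7.17 in Corin and 7.96 in the combination. The region also covers the start of the non-coding gene DINOL, so the 2 promoters cannot be told apart here. Its pileup, the reads at the summit, was 1900, 2023, 2009 and 3074 in the same order. Fold and pileup do not rank the lists alike: the combination has the most reads and also the highest local background, 385 reads against 215 in DMSO. The scaled fold ratio over DMSO was 1.10 with ATRA, 0.864 with Corin and 0.887 with the combination, none past the limit of 1.5. The scaled pileup ratio was 0.992 (0.931 to 1.06), 1.16 (1.09 to 1.23) and 1.45 (1.37 to 1.53) in that order, also within it. These intervals cover counting error only. Corin and the combination were thus below DMSO by fold and above it by pileup, so their direction depends on the measure.

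CDKN1B encodes p27, the inhibitor that accumulates in resting cells. Its start region (chromosome 12, 12716697 to 12717754) had a fold of 9.35 in DMSO, 7.67 in ATRA, 10.7 in Corin and 9.63 in the combination. ATRA was the lowest of the 4 although its list has the highest folds in general, and this was the only start region of the 7 called against DMSO by fold, with a scaled ratio of 0.651. Its place among the 66303 regions called in all lists was at percentile 54.1 in DMSO, 26.5 in ATRA, 66.4 in Corin and 54.9 in the combination. By pileup the 4 lists were closer, at 1118, 1088, 922 and 1104 reads, and the scaled pileup ratio of ATRA over DMSO was 0.907 (exact 95% interval 0.833 to 0.987, counting error only). The local background was 141 reads in ATRA against 119 in DMSO, so at the summit itself the lists were close to each other.

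CDKN1C, an imprinted gene for p57, had the lowest start fold in DMSO, 4.96, with 9.09 in ATRA, 5.11 in Corin and 6.58 in the combination (chromosome 11, 2884004 to 2886101). Pileup gives another order, with 368 reads in DMSO, 290 in ATRA, 517 in Corin and 459 in the combination. The summits were spread over 236 bp between the lists, so these reads were not counted at the same position. ATRA over DMSO was 1.45 by scaled fold and 0.734 by scaled pileup (interval 0.627 to 0.859), so the direction depends on the measure. Corin over DMSO was 1.09 by fold and 1.54 by pileup (1.34 to 1.76). The local background behind these was 73.4 reads in DMSO and 31.0 in ATRA.

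Of the INK4 starts, CDKN2B, which encodes p15, had a higher fold in every list than the regions at the other MANE Select starts and the ARF start. Its region (chromosome 9, 22008593 to 22009780) had a fold of 15.8 in DMSO, 20.3 in ATRA, 15.7 in Corin and 17.5 in the combination, at percentiles 87.2 to 90.0. Scaled over DMSO this was 1.02, 1.06 and 1.09 for ATRA, Corin and the combination. CDKN2C, which encodes p18, had a region over its MANE Select start (chromosome 1, 50968030 to 50970360) with folds of 10.9, 9.93, 11.8 and 11.9 in DMSO, ATRA, Corin and the combination. A further region at an alternative CDKN2C start, shared with the neighbour FAF1, had folds of 15.4, 14.2, 18.0 and 18.6, above those of CDKN2B in Corin and the combination. CDKN2D, which encodes p19, had 9.53, 10.5, 9.17 and 9.64 (chromosome 19, 10568475 to 10569751), the narrowest spread after that of ARF. In both CDKN2C regions ATRA had the lowest fold of the 4 lists, as at CDKN1B. By pileup this held only at the alternative start, with 763, 592, 1048 and 1136 reads in DMSO, ATRA, Corin and the combination. The region over the MANE Select start had 1109, 1117, 1084 and 1306 reads. There the scaled pileup ratio of ATRA over DMSO was 0.939 (0.863 to 1.02, counting error only).

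**Figure D2:**
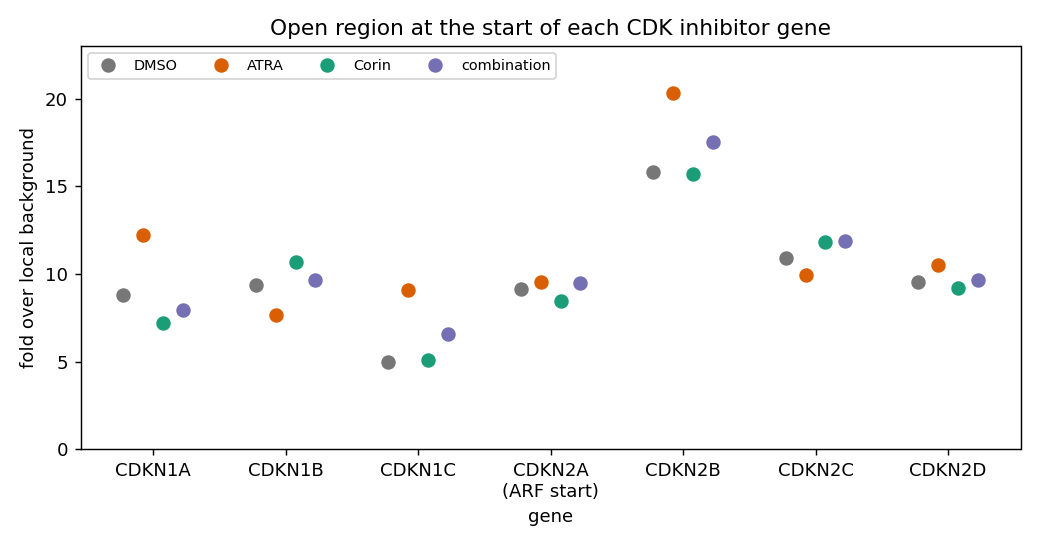
Fold over local background at the start region of each gene with the highest −log10 p in DMSO, 1 dot per list with no error because the replicates were combined. Of the regions plotted CDKN2B is highest in all lists (15.7 to 20.3), and ATRA is the lowest list at CDKN1B (7.67) and CDKN2C (9.93). For CDKN2A the ARF start is shown, since INK4a has no region, and the alternative CDKN2C start is not plotted.

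By scaled fold over DMSO, the 7 start regions lay between 0.651 and 1.45 with ATRA. The ranges were 0.864 to 1.22 with Corin and 0.887 to 1.30 with the combination. The combination against ATRA was called higher by fold at 2 of the 7, CDKN1B with 1.59 and CDKN2C with 1.51. Over the genome 7.18% of shared regions were higher. The scaled pileup ratios of CDKN1B and CDKN2C were 1.02 (0.938 to 1.11) and 1.18 (1.08 to 1.27). By pileup 2 other starts passed 1.5, CDKN1A with 1.53 (1.44 to 1.62) and CDKN1C with 1.59 (1.37 to 1.85). Their fold ratios were 0.821 and 0.915, so the 2 measures picked different starts. Against Corin, the combination ran from 0.837 to 1.20 with no call.

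Most of the regions described next were named for their ratios, or for being gained or lost, over all windows. Their differences are therefore large by choice. Their size cannot be set against that at the starts, which were named by strength in DMSO. The region with the highest ratio over DMSO in both ATRA and the combination lay in CDKN2A, in the intron between the ARF and INK4a first exons (chromosome 9, 21982818 to 21984107). It was the region nearest upstream to the INK4a start, 7.96 kb before it and 10.3 kb past the ARF start. Its fold was 5.15 in DMSO, 12.6 in ATRA, 5.45 in Corin and 12.1 in the combination, so both lists with ATRA were high and both without it low. The scaled ratio over DMSO was 1.94 with ATRA, 1.12 with Corin and 2.30 with the combination, comparisons that share the DMSO list. Pileup was also high in both lists with ATRA and low in both without it. It was 70, 171, 76 and 185 reads in DMSO, ATRA, Corin and the combination, and ATRA over DMSO was 2.28 (1.71 to 3.05). The combination stood 2.06 times above Corin (pileup 2.01, 1.53 to 2.66), and over ATRA the ratio was 1.21 (pileup 1.09, 0.879 to 1.35).

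A second region with that pattern lay in CDKN1B, 16.6 kb before the MANE Select start (chromosome 12, 12700269 to 12700754), over an exon of a retained-intron transcript. It was absent from DMSO and Corin and had a fold of 5.02 with 116 reads in ATRA and 5.72 with 170 reads in the combination. Another, 2.23 kb after the start of the same gene, had a lower fold but more reads, 2.61 with 434 reads in ATRA and 2.54 with 307 in the combination, and was absent from DMSO and Corin. The remaining gained region named by strength with ATRA had a fold of 2.94 beside the ARF region, in ATRA alone. The combination alone had a region of 2.81 at 2.94 kb before the CDKN1B start. Both CDKN1B intronic regions between these, at 12.4 and 10.9 kb before the start, were in all 4 lists, the latter with 10.9, 8.59, 11.2 and 11.9 and thus lowest in ATRA (scaled 0.623, pileup 0.436).

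**Figure D3:**
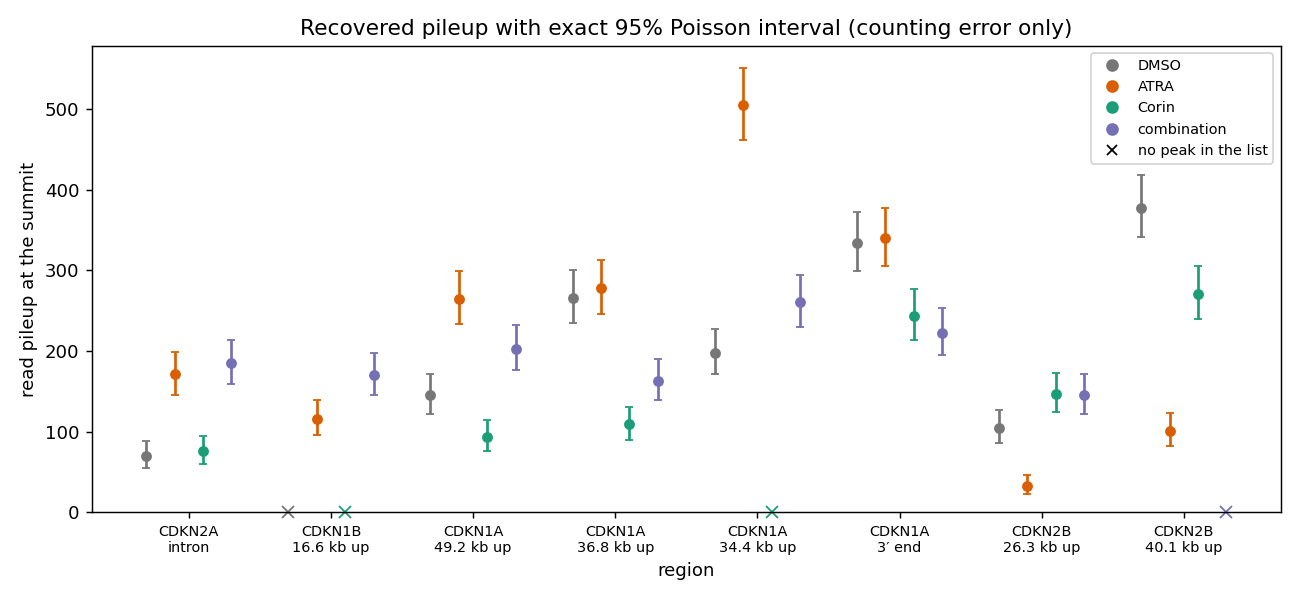
Reads at the summit for 8 distal regions in the 4 lists, recovered from the deposited scores and not scaled for depth, with exact 95% Poisson intervals that cover counting error only. Crosses mark lists without a peak. The CDKN2A intron has 70 and 76 reads in DMSO and Corin against 171 and 185 in ATRA and the combination, and the CDKN2B regions are lowest in ATRA or absent in the combination.

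Upstream of CDKN2B, inside the non-coding gene CDKN2B-AS1, the ratios went the other way with ATRA. The region 40.1 kb before the start (22049388 to 22049777) had a fold of 6.94 in DMSO, 2.75 in ATRA and 6.70 in Corin, and no peak in the combination. ATRA over DMSO was 0.314 scaled (pileup 0.249, 0.198 to 0.311), the lowest with ATRA at any of the loci, and Corin over DMSO was 1.02. Its neighbour, which begins 40.8 kb before the start, was open in all lists, with 12.7, 20.6, 12.2 and 15.8 in DMSO, ATRA, Corin and the combination. The region at 26.3 kb (22035562 to 22036043) had 4.05 in DMSO, 2.00 in ATRA, 4.96 in Corin and 4.48 in the combination. Here ATRA was low and the combination was not: ATRA over DMSO was 0.393 (pileup 0.293, 0.192 to 0.437) and the combination over ATRA 2.82 (pileup 4.42, 3.01 to 6.66). Both summit windows carry the AP-1 letters shown above. At 22.4 kb before the start the combination was highest, with 3.78, 5.27, 4.74 and 6.42, and a scaled ratio over DMSO of 1.67. Corin alone had 3 weak regions upstream of CDKN2B, with folds of 3.14, 3.11 and 1.77, and lacked one that had 2.72 in DMSO. The region of 1.77 had a −log10 p of 2.64, below the lowest of the DMSO list, 2.79, so its absence from DMSO does not mark a difference.

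With Corin, the 3 regions called lower than DMSO by fold all lay at CDKN1A, 3 of the 15 shared there (20%, where 10.8% of all shared regions were lower). By pileup 8 regions were lower, 5 at CDKN1A, 2 at CDKN1B and 1 at CDKN2D, with no genome share computed for that measure. CDKN1A lost 6 of its 22 DMSO regions (27.3%, against 28.5% of all DMSO regions). Over the 15 regions called in both lists the median scaled ratio was -0.15 on the log2 scale by fold and -0.33 by pileup, and by pileup 1 of the 15 was above 0. With ATRA the same medians, over 19 regions, were 0.14 and 0.29. The region 48.6 kb after the start, in an intron of the neighbour RAB44 (36727303 to 36728235), had 957 reads in DMSO, 1901 in ATRA, 288 in Corin and 1072 in the combination, with folds of 13.1, 19.1, 7.72 and 16.0. Corin over DMSO was 0.627 by fold and 0.329 by pileup (0.288 to 0.376), and the combination over Corin 1.94 and 3.07 (2.69 to 3.51). With both compounds the region was near DMSO, at a scaled ratio of 1.20 by fold and 1.0 by pileup (0.918 to 1.10).

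A different order was seen 36.8 kb before the CDKN1A start (36641342 to 36641877), where folds were 5.11 in DMSO, 4.35 in ATRA, 2.51 in Corin and 2.56 in the combination. Both lists with Corin were low, with scaled ratios over DMSO of 0.520 (pileup 0.449, 0.356 to 0.563) and 0.491 (0.549, 0.449 to 0.669). At the 3′ end of CDKN1A (36685434 to 36686845) folds were 6.42, 10.5, 4.02 and 2.71 in DMSO, ATRA, Corin and the combination. There the combination over ATRA was 0.327 by fold and 0.660 by pileup (0.555 to 0.783). At 34.4 kb before the start (36644058 to 36644361) the fold was 4.13 in DMSO, 8.13 in ATRA and 4.31 in the combination, with no peak in Corin. The adjoining region, at 32.9 kb, was in all lists with 10.1, 11.7, 9.42 and 10.3. At 49.2 kb before the start folds were 2.94, 7.11, 2.25 and 3.58, with ATRA over DMSO at 1.92 and the combination over ATRA at 0.636. Within this single locus, then, the combination was close to Corin at 36.8 kb before the start and closer to DMSO in the RAB44 intron.

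The remaining named regions were weaker or lay at other genes. In the part of the CDKN2A window inside MTAP, 1 region had 9.52, 20.5, 10.3 and 11.8 in DMSO, ATRA, Corin and the combination (ATRA scaled 1.71), and another had 4.71, 5.04, 7.57 and 3.95 (Corin scaled 1.70). Around CDKN1C, Corin was called higher at 24.5 kb after the start, with 2.31, 3.76, 3.79 and 3.96, and at 26.8 kb before it, with 1.65 in DMSO and 2.94 in Corin only. At 14.5 kb after the CDKN1C start a region with 3.70, 2.87 and 2.34 in DMSO, ATRA and the combination was absent from Corin. In the CDKN2D window the combination was low at an ATG4D start that lies inside KRI1, with 4.59, 5.98, 3.38 and 2.30 (scaled over DMSO 0.491). The strongest losses there were a KRI1 region of 4.0 absent from ATRA and a region of 2.06 at the 3′ end of CDKN2D absent from Corin and the combination. At CDKN1A the strongest gain with Corin was 2.42, and a RAB44 region of 2.41 in DMSO was absent from ATRA and the combination. At PHLDA2, near CDKN1C, a region of 2.06 in DMSO was absent from ATRA.

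**Figure D4:**
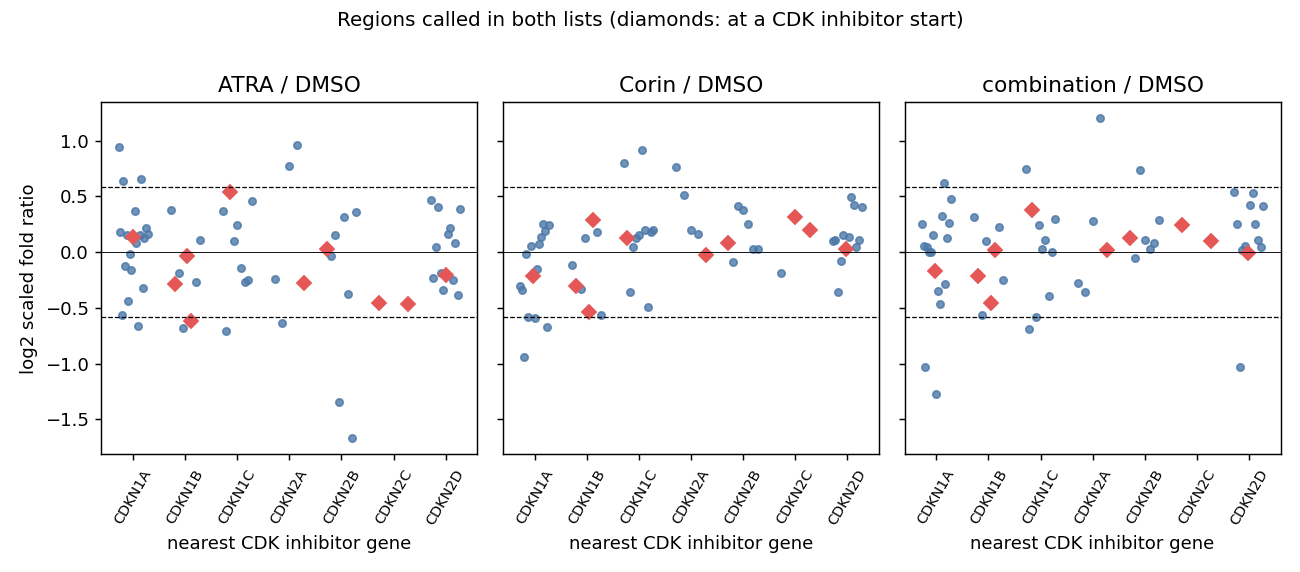
log2 of the scaled fold ratio over DMSO for each region called in both lists, by nearest gene, with diamonds for regions at a CDK inhibitor start and dashed lines at a ratio of 1.5 in either direction. The diamonds stay within the lines except CDKN1B with ATRA (0.651 as a ratio), and the lowest points are the regions 40.1 and 26.3 kb before CDKN2B with ATRA.

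The gained, lost and scaled fold counts over all loci are set beside those of the genome. Counts without scaling or by pileup, here and between treatments, stand without a genome share, which was not computed. Against DMSO, ATRA gained 16 of its 85 regions (18.8%, where 23.1% of all ATRA regions were gained) and lost 10 of 80 (12.5%, against 25.3%). It was higher at 5 of 64 shared regions (7.81%, against 16.6%) and lower at 7 (10.9%, against 8.80%). Without the scaling 15 were higher and 2 lower, and by pileup 11 and 9, so this split depends on how the lists are put on one scale. Corin gained 9 of 75 (12.0%, against 17.7%), lost 14 of 80 (17.5%, against 28.5%), and was higher at 3 of 61 (4.92%, against 6.34%) and lower at 3 (4.92%, against 10.8%). With no scaling the Corin split was 3 higher and 6 lower, and by pileup 7 and 8. The combination gained 13 of 76 (17.1%, against 16.7%), lost 15 of 80 (18.8%, against 31.5%), and was higher at 4 of 61 and lower at 4 (6.56% each, against 8.26% and 12.1%), while by pileup 6 were higher and 11 lower. All shares of loss lay below those of the genome.

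Between treatments, the combination gained 6 of 76 regions over ATRA (7.89%, against 15.5% of all) and lost 14 of 85 (16.5%, against 28.4%). It was higher than ATRA at 6 of 67 (8.96%, against 7.18%) and lower at 4 (5.97%, against 18.1%), but with no scaling 1 was higher and 15 lower, and by pileup 12 and 10. Against Corin it gained 16 of 76 (21.1%, against 20.6%) and lost 12 of 75 (16.0%, against 25.0%). It was higher than Corin at 3 of 58 (5.17%, against 9.71%) and lower at 4 (6.90%, against 8.97%), with 6 and 2 when not scaled and 6 and 4 by pileup.

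The genes that these inhibitors act on, or that act on them, were also open at their starts. Of 26 cell cycle genes (cyclins, kinases, E2F and RB family members and others) all had a region at the start in every list. With 1 region compared per gene, 0 were gained and 0 lost. Over the genome 16.7% to 23.1% of a treatment's regions were gained over DMSO, and 25.3% to 31.5% of DMSO regions were lost. Those shares are not limited to starts. The number of regions near a start did differ between lists at some genes, such as E2F1 (2 in DMSO, 1 in ATRA) and CCND2 (2 in DMSO, 3 in ATRA). E2F2, an activator of S phase genes, was lower with ATRA, with folds of 5.03 in DMSO, 3.36 in ATRA, 4.79 in Corin and 3.26 in the combination and scaled ratios over DMSO of 0.529 and 0.635 for ATRA and the combination. Its pileup was 460, 463, 476 and 590 reads, so before scaling its summit was not lower in the lists with ATRA. Over all shared regions the median pileup ratio to DMSO was 1.07 with ATRA and 1.12 with the combination. RB1, the target of the D cyclin kinases, was higher in the combination than in ATRA (1.57), and CCNE1, the cyclin that CDKN1A and CDKN1B hold back, was higher in the combination than in Corin (1.51), while E2F2 was lower there (0.633). Each of these counts is 1 of 26 genes (3.85%), beside genome shares of 8.80% lower with ATRA, 12.1% lower with the combination, 7.18% higher than ATRA, and 9.71% higher and 8.97% lower than Corin.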

How the data were processed

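ATAC-seq of U-937 cells was taken from 8 samples, 2 per group, grouped per the labels. The authors deposited 1 narrowPeak list per group, with replicates combined. cutadapt, Bowtie2, SAMtools, Picard and MACS2 and the build hg38 are named in the submitters' processing notes, without versions. In the deposited lists the fold of a peak is a ratio over its local background, and its p and q are −log10 values. The summit column of the deposited files is an offset in bp, with no other normalization. Read depth is not given in the sources used here.

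Overlapping peaks were merged to regions in Python 3.11.15 with pandas 2.3.3 and NumPy 2.4.6. A region was gained or lost when it shared not even 1 bp with the other list. Highest folds of regions in both lists were compared after division by the median ratio. Pileup and background were solved from fold and p, with SciPy 1.17.1, taking p as a Poisson tail. The pileup came out whole, within 0.05, for 99.85% to 99.98% of peaks, and intervals from it are exact and cover counting error only. Genes came from GENCODE release 44. The method was tested on simulated data.

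The 7 members, the gene lists and the alternatives were chosen with earlier results of these data known. Named by rule were the strongest start region of each gene and, for each treatment against DMSO, the 3 strongest gained, the 3 strongest lost, the 3 highest and the 3 lowest ratios, and the cell cycle genes with a call. The neighbouring regions given beside them, the regions 10.9 and 12.4 kb before CDKN1B and the second CDKN2C start were added once their values had been seen. The alternatives comprised a −log10 q of at least 5, windows of 10 or 100 kb, merging within 150 bp, an overlap of 50%, a ratio of 2, folds not scaled, pileup, and the fold of the peak with the highest −log10 p. For starts they were 2.5 kb and coding transcripts only. A common floor of −log10 p of 2.79, the lowest of the DMSO list, and scaling within 20 classes of fold were added after seeing the data.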

Additional observations from a re-analysis of the deposited data

How the results depend on the processing

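Of 120 values under alternatives, 97 stayed within 1.5 times the count or within the 95% Wilson interval of the share. That interval treats regions as independent and is wide, so large changes can stay inside it. Corin lower than DMSO went from 4.92% to 13.1% by pileup. The combination higher than ATRA went from 8.96% to 14.9% with classes of fold. Both count as within it. By this rule the −log10 q limit, the merging, the 50% overlap, the common floor and the classes of fold moved none of them. Windows of 10 and 100 kb held 29 and 177 regions in place of 100, and with 10 kb 72.4% were in all 4 lists, ATRA lost 4.0%, Corin gained 0% and was higher at 0%, and the combination gained 12.5% over Corin and lost 0%. A ratio of 2 left 0% higher and 3.12% lower with ATRA, 0% and 0% with Corin, 1.64% higher with the combination, 1.49% higher than ATRA, and 1.72% higher and 1.72% lower than Corin. Without scaling ATRA was higher at 23.4% and lower at 3.12%, and the combination against ATRA at 1.49% and 22.4%. By pileup ATRA was higher at 17.2%, and the combination lower than DMSO at 18.0% and than ATRA at 14.9%.

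No paired analysis was possible because the deposited lists combine the replicates. Leaving out a replicate was not run, since the lists hold none apart. The lists differ in their lowest −log10 p, 2.79 in DMSO and 2.00 in the others. Depth is not known, and the fold depends on the local background, which at the 7 starts ran from 31.0 to 385 reads.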
